A study of Mus musculus with 2 samples.

Results

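Blood stem cells emerge from the wall of the embryonic aorta under a set of transcription factors and cofactors. The 10 genes described here encode such factors or other members of the Runx family: Runx1, Runx2, Runx3, Cbfb, Gfi1, Gfi1b, Mecom, Tal1, Lmo2 and Gata2. They were chosen by name, as the features whose Entrez gene number belongs to these symbols. The table held 25429 features, of which 24675 had a listed symbol. The platform annotation listed 9 of the 10 genes, and the feature of Runx2 was found by its gene number alone. Expression was measured in ventral tissue, cut from under the dorsal aorta, and in dorsal tissue, cut from between the roof of that vessel and the notochord. Both pieces were taken by laser microdissection from the same C57Bl/6 mouse embryos at embryonic day 10.5, and the sources used here do not say how many embryos were used. Each tissue had 1 array, labelled biological replicate 4, so no value below has an error, no difference has a replicate check and no test was possible. A microdissected piece is a mixture of whatever cells lie in it, and fewer cells of a type and less RNA per cell cannot be told apart in it.

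The Runx proteins bind DNA through a shared Runt domain, and Cbfb is the partner that binds no DNA itself and raises the affinity of each of them. In mice, loss of Runx1 or of Cbfb stops the formation of definitive blood cells, and Runx1 acts in hemogenic endothelium, the vessel wall cells that turn into blood. Gfi1 and Gfi1b are zinc finger repressors that act after Runx1 and silence endothelial genes by recruiting a histone demethylase complex. Tal1, Lmo2 and Gata2 meet in 1 DNA-bound complex, in which Tal1 pairs with an E protein and Lmo2 bridges to the GATA factor. Mecom, also known as Evi1, is a zinc finger factor needed by long-term blood stem cells.

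To judge whether a gene had a signal, its value was set against 1365 olfactory and vomeronasal receptor genes, genes of smell and pheromone sensing that serve here as silent genes. Their 95th percentile over the pooled values of the arrays, 3.92 on the log2 scale, was taken as the mark of background, and their 99th percentile, 5.48, as a stricter mark. Over all named genes the values spanned 1.47 to 14.2 on the ventral array, with a median of 3.02, and 1.45 to 14.1 on the dorsal array, with a median of 3.15. The medians of the 10 regulators were 3.27 on the ventral array and 3.38 on the dorsal array. All levels below are log2 values, and all differences are ventral minus dorsal on that scale. Only 3 of the 10 genes, Cbfb, Gfi1b and Mecom, reached the mark of background on the ventral array, where 23.8% of all named genes did so. On the dorsal array Gfi1b alone reached it, where 24.2% of all named genes did so. The other 7 genes lay under it on both arrays, as did 71.2% of all named genes.

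The windows upstream of the 3 genes with a signal are shown because these genes carry the measured levels. Each gives the 250 bases before an annotated RefSeq gene start (GRCm38.p6), 5′ to 3′ on the gene's strand. Cores of 4 kinds were searched on both strands and are set in capitals where found: the Runx core, TGTGGT or TGCGGT; the GATA core, the letters GATA with A or T before them and A or G after them; the E-box of Tal1 with an E protein, CAGCTG or CAGATG; and a Gfi1-type core, AAATC followed by A or T. Matches of different kinds did not overlap in the windows shown.
Cbfb, chr8:105170424-105170673, plus strand: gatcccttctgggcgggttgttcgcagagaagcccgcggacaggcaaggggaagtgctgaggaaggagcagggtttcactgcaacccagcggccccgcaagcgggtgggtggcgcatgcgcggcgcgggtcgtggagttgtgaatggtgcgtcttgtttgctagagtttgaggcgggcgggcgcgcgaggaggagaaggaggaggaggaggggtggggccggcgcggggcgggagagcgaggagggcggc
Gfi1b, chr2:28621983-28622232, minus strand: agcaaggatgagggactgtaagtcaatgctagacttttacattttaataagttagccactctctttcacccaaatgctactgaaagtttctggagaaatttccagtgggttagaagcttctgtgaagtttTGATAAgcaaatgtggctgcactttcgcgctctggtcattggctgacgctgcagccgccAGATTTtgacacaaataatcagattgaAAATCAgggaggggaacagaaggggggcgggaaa
Mecom start A, chr3:30509760-30510009, minus strand: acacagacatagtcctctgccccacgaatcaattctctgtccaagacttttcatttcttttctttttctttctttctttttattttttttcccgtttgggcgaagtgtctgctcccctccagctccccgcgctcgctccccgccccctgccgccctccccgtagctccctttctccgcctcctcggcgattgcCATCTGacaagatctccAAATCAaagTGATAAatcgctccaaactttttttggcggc
Mecom start B, chr3:30013205-30013454, minus strand: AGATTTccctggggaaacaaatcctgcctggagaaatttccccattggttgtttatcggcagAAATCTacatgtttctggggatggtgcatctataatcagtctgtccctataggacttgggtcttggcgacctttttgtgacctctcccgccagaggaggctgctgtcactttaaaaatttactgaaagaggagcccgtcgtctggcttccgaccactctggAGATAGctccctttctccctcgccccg

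The Cbfb window held none of the searched cores and had 69.2% G and C. The Gfi1b window, with 44.4% G and C, held 1 GATA core and 2 Gfi1-type cores. Mecom had 2 starts in the table. Start A had 1 GATA core, 1 E-box of the Tal1 kind and 1 Gfi1-type core, and start B had 1 GATA core and 2 Gfi1-type cores. Across the 32851 promoters in the table, 18.6% held a Runx core in the same window, 26.5% a GATA core, 25.5% an E-box of these spellings and 22.9% a Gfi1-type core. A match describes letters and is not a measured binding site. The table had windows for 9 of the 10 genes and 15 starts in all, with none for Lmo2. Runx cores occurred in the window of Runx2, with 1 match, and in the window of the upstream start of Runx3, with 2, and neither start of Runx1 held any of the searched cores. Each gene has 1 feature on the array, so the values below do not separate transcripts from different starts of Runx1 or Mecom.

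Among the core-binding factor genes, the shared partner had a signal and the Runx genes had none above background. Cbfb was measured at 5.72 on the ventral array and 3.39 on the dorsal array. The ventral value passed even the stricter mark, while the dorsal value lay under the mark of background. The difference was 2.33, and since the dorsal level is only bounded, the fold is printed against the mark: Cbfb was at least 3.48-fold higher on the ventral array. Chance loss of the Cbfb transcript in amplification of the dorsal piece was not tested. Cbfb stood above 92.0% of all named genes on the ventral array and above 60.2% on the dorsal array. It also stood above 99.4% of the receptor genes on the ventral array, against 89.0% on the dorsal array.

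Runx1, the member of the family needed for blood emergence, was measured at 3.23 on the ventral array and 3.68 on the dorsal array. Both values lay under background, and a difference was not detectable at this signal. Runx1 stood above 89.4% of the receptor genes on the ventral array and above 91.8% on the dorsal array. Runx2, the regulator of bone formation, was measured at 2.65 on the ventral array and 2.78 on the dorsal array. Runx3, which acts in sensory neurons and T cells, was measured at 2.88 on the ventral array and 2.91 on the dorsal array. These Runx2 and Runx3 values fell among the bulk of the receptor genes, above 73.3% and 82.1% of them on the ventral array, against 72.1% and 76.4% on the dorsal array.

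**Figure D1:**
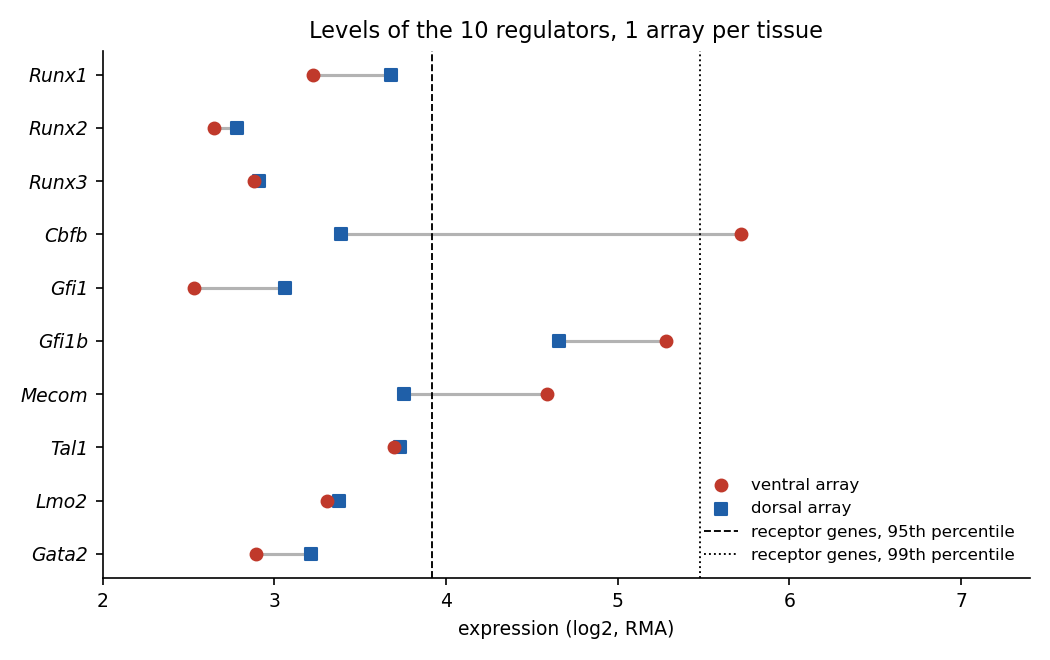
Level of each of the 10 regulators (rows) on the log2 scale (horizontal axis), with a circle for the ventral array and a square for the dorsal array, 1 array per tissue, so there are no error bars. The dashed and dotted lines mark the receptor genes' 95th and 99th percentiles, 3.92 and 5.48; Cbfb on the ventral array, at 5.72, is the only value past the dotted line.

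Of the Gfi1 pair, Gfi1b had a signal on both arrays and Gfi1 on neither. Gfi1b, which is known for its part in red cell and platelet development, was measured at 5.28 on the ventral array and 4.66 on the dorsal array. Both values lay between the marks, above 98.9% of the receptor genes on the ventral array and 97.6% on the dorsal array. The ventral value was 1.54-fold higher, a difference of 0.62. Gfi1 was measured at 2.53 on the ventral array and 3.06 on the dorsal array, both at background. Levels of different features depend on their probes, so no ratio between the paralogs is given.

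Mecom was measured at 4.59 on the ventral array and 3.76 on the dorsal array. Relative to the mark the ventral value was 0.67 and the dorsal value -0.16, so Mecom passed it on the ventral array alone and by a narrow margin. Against the mark the fold was at least 1.59 higher on the ventral array, and the measured difference of 0.83 was within 2-fold. Cbfb and Mecom thus reached the mark on the ventral array only, a pattern shown by 4.56% of all named genes, while 4.93% showed the opposite one, which none of the 10 regulators did. This pattern depends on the mark. At the receptor genes' 90th percentile, Cbfb and Mecom passed on both arrays, Cbfb on the dorsal array only just, Tal1 passed on both as well, and Runx1 passed on the dorsal array alone. All named genes passed that lower mark in 36.5% of cases on the ventral array and 40.1% on the dorsal array.

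The genes of the Tal1 complex were at background on both arrays. Tal1, the basic helix-loop-helix factor that starts the blood program in mesoderm, was measured at 3.70 on the ventral array and 3.73 on the dorsal array, or -0.22 and -0.19 relative to the mark. Lmo2, the LIM-only bridging protein, was measured at 3.31 on the ventral array and 3.38 on the dorsal array. Gata2, the zinc finger factor required for blood stem cells to form and persist, was measured at 2.89 on the ventral array and 3.21 on the dorsal array. A difference was not detectable at this signal in any of them, and the nearness of the Tal1 and Lmo2 values on both arrays carries no information about equal expression.

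Counts by size were limited to genes with at least 1 value at or above 3.10, which is the midpoint of all named genes when each is averaged over the arrays. This left 13982 genes and 7 of the 10 regulators, leaving out Runx2, Runx3 and Gfi1. Here and in the lists below these counts use the measured values, also where an array is under the mark and the printed fold is a lower bound that can be under 2. Of these 7, Cbfb alone was at least 2-fold higher on the ventral array, where 9.44% of kept genes were. None was at least 2-fold higher on the dorsal array, where 4.88% of kept genes were. The other 6 were within 2-fold. At a threshold of 1.5-fold, 3 of the 7 were higher on the ventral array, beside 16.3% of kept genes, and 0 on the dorsal array, beside 15.0%. The median difference of the 7 was -0.03, beside -0.12 over all kept genes. A count of 1 in 7 is near the share of all kept genes at least 2-fold apart either way, 14.3%. The shares of 9.44% and 4.88% also stand beside the 2-fold counts of each list below.

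The spread of differences depends on level, as the plot of difference against level shows. Gfi1b, the only regulator with a signal on both arrays, was therefore also placed among the 1000 kept genes nearest to it in mean level, as a description. Of these, 49.4% were at least as far apart in either direction, so the Gfi1b difference was ordinary for its level. The other regulators had at least 1 value under the mark, where the exact size of a difference is not measured, so their places are not given here.

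**Figure D2:**
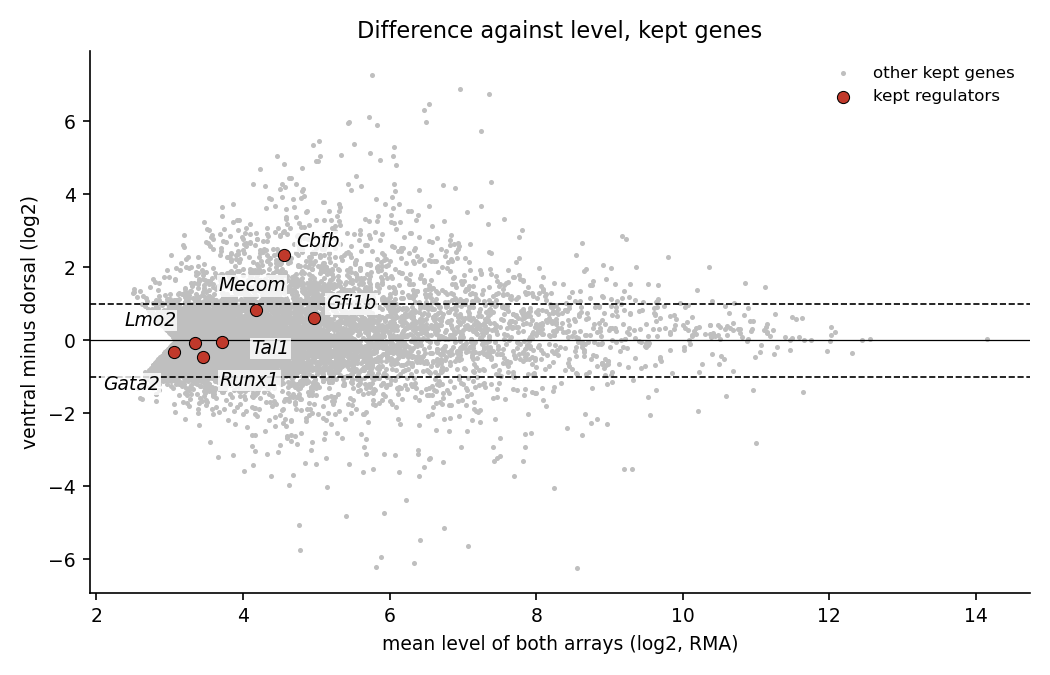
Ventral minus dorsal difference (log2, vertical axis) against the mean level of both arrays (log2, horizontal axis) for the 13982 kept genes, 1 array per tissue. The 7 kept regulators are the large named points, and the dashed lines mark 2-fold; Cbfb, at 2.33, is the only regulator outside them.

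Genes with the pattern most like a regulator's were found by distance in the plane of both arrays, over 2 arrays only, so many genes share a pattern by level alone. The nearest to Cbfb were Wdr37, at 5.80 on the ventral array and 3.40 on the dorsal array, and Taf1b, at 5.72 and 3.48 on the ventral and dorsal arrays. The nearest to Gfi1b were Rnf122 and Fam76b, and the nearest to Mecom were Tbx18 and Avl9. Within a distance of 0.5 on the log2 scale lay 83 protein-coding genes for Cbfb, 390 for Gfi1b and 572 for Mecom.

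The cofactors through which Runx proteins act had levels above background in most cases. On the ventral array 11 of 15 measured genes reached the mark, beside 23.8% of all named genes. On the dorsal array 12 of them did, beside 24.2%. Of 15 measured genes of this list, all were kept, 2 were at least 2-fold higher on the ventral array, 1 was at least 2-fold higher on the dorsal array and 12 were within 2-fold. Kmt2a, the MLL histone methyltransferase that binds Runx1, was 2.99-fold higher on the ventral array, at 5.70 against 4.12 on the dorsal array. Sin3a, a corepressor scaffold, was 2.12-fold higher on the ventral array, at 5.51 against 4.43 on the dorsal array, and was under 2-fold once the columns were quantile-normalized, at 0.89. Tle1, a Groucho corepressor that binds the end of Runx proteins, was at least 4.12-fold higher on the dorsal array, at 3.36 on the ventral array against 5.96 on the dorsal array. The histone acetyltransferases Ep300, at 5.21 on the ventral array and 5.25 on the dorsal array, and Kat6a, at 5.86 on the ventral array and 5.98 on the dorsal array, were nearly level. The median difference of the list was -0.03.

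Partners of Tal1, Lmo2 and Gata2 included well-measured genes whose own blood-restricted relatives were at background. Of 16 measured genes 13 were kept, 0 were at least 2-fold higher on the ventral array and 2 were at least 2-fold higher on the dorsal array. Both were E proteins, the widely expressed helix-loop-helix factors that pair with Tal1. Tcf4 was 4.09-fold higher on the dorsal array, at 4.62 on the ventral array against 6.65 on the dorsal array. Tcf3 was 2.27-fold higher on the dorsal array, at 4.26 on the ventral array against 5.45 on the dorsal array. The third E protein, Tcf12, was measured at 7.19 on the ventral array and 7.37 on the dorsal array. Ldb1, the protein that Lmo2 links into the complex, was measured at 8.88 on the ventral array and 9.61 on the dorsal array, within 2-fold. Fli1, an ETS factor of endothelium and blood, was at 7.09 on the ventral array and 6.90 on the dorsal array, while its relative Erg was at background at 3.86 and 3.72 on the ventral and dorsal arrays. Lyl1, the closest relative of Tal1 in blood, was at 2.87 on the ventral array and 3.03 on the dorsal array, and Gata1, the erythroid GATA factor, at 2.54 on the ventral array and 2.84 on the dorsal array. The median difference of the kept genes of this list was -0.18.

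In the corepressor complex that Gfi1 and Gfi1b recruit, 4 genes of 11 kept out of 13 measured were at least 2-fold apart. Of these, 3 were at least 2-fold higher on the ventral array and 1 on the dorsal array, beside 9.44% and 4.88% of all kept genes. Hdac1, a class I histone deacetylase, was measured at 8.78 on the ventral array and 2.87 on the dorsal array. The fold was at least 29.0 higher on the ventral array. The dorsal Hdac1 value lay under the median of all named genes on that array, 3.15, and chance loss of the transcript in amplification was not tested. The paralog Hdac2 was 2.07-fold higher on the ventral array, at 10.16 against 9.11 on the dorsal array. It was under 2-fold after quantile normalization, at 0.84, and after a loess on level, at 0.77. Rcor1, the CoREST scaffold, was 2.41-fold higher on the ventral array, at 5.31 against 4.04 on the dorsal array. Hmg20b, a DNA-binding subunit of the complex, was 2.23-fold higher on the dorsal array, at 4.91 on the ventral array against 6.07 on the dorsal array. Kdm1a, the demethylase itself, was measured at 8.27 on the ventral array and 7.51 on the dorsal array, within 2-fold. The median difference of the kept genes was -0.03, so the list as a whole did not lie on 1 side.

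**Figure D3:**
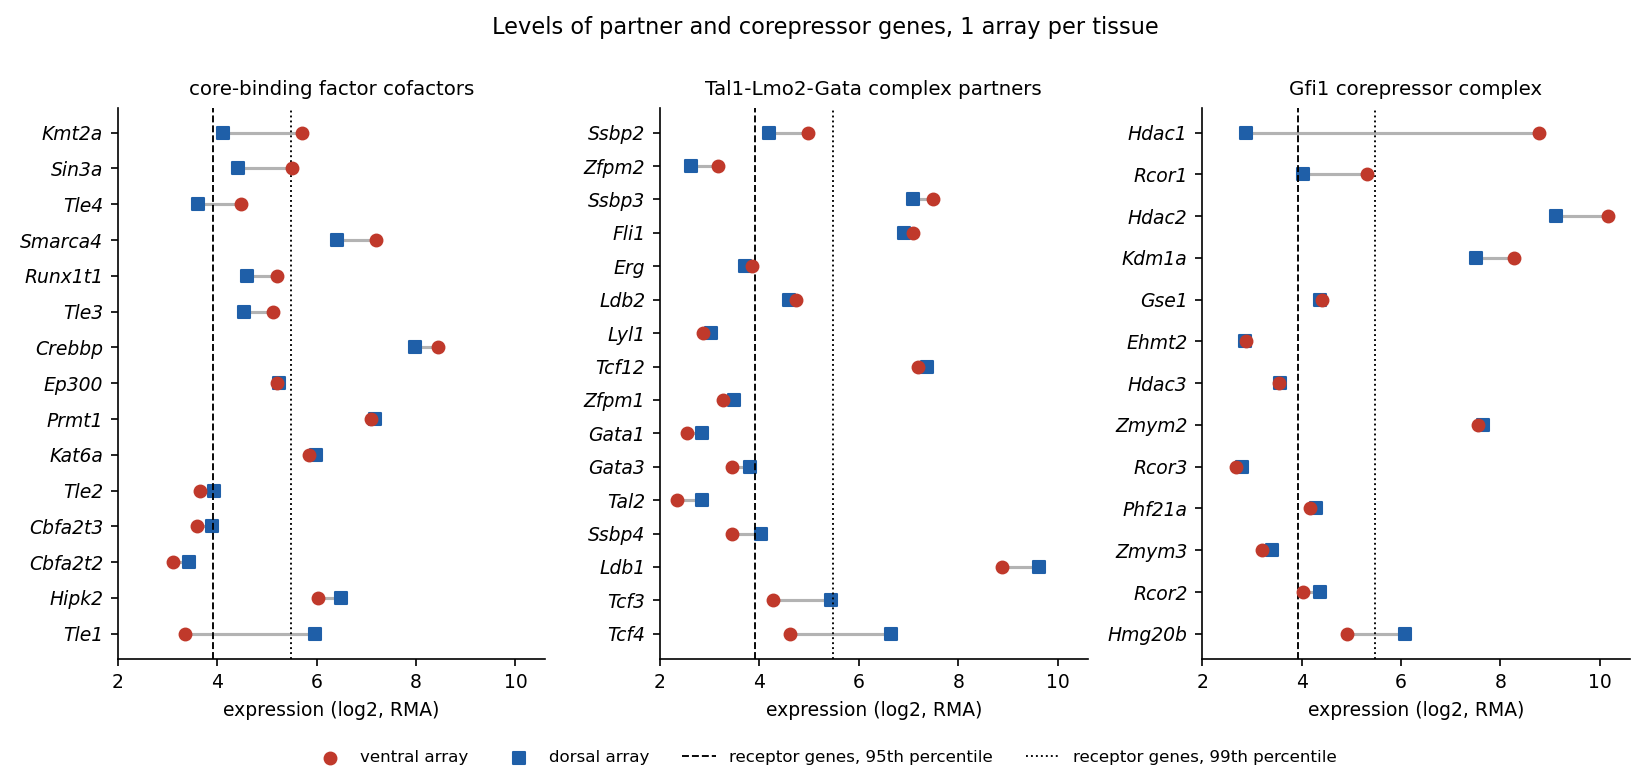
Levels on the log2 scale (horizontal axes) of the measured genes of the cofactor, Tal1 complex and Gfi1 corepressor lists (1 panel each), ordered by ventral minus dorsal difference, with circles for the ventral and squares for the dorsal array, 1 array per tissue. Dashed and dotted lines are the receptor genes' 95th and 99th percentiles; Hdac1 has the widest gap, at 8.78 on the ventral array and 2.87 on the dorsal array.

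Paralogs outside the 10 genes gave no gene at least 2-fold apart among the 7 kept of 13 measured. Gata6, a GATA factor of mesoderm and endoderm, was measured at 5.10 on the ventral array and 4.29 on the dorsal array. Gata4, its relative in the body-cavity lining and gonad, was at 4.51 on the ventral array and 3.89 on the dorsal array. Lmo4, the widely expressed LIM-only gene, was at 3.73 on the ventral array and 4.33 on the dorsal array. The other 10 were at background on both arrays, among them Gata3 and Prdm16, the closest relative of Mecom. Of all named genes, 71.2% were.

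Markers of the cells in which the 10 regulators act were set beside them. Beside 71.2% of all named genes, 17 of 20 measured genes of blood progenitors were at background on both arrays. These included Kit, the stem cell factor receptor, at 3.07 on both arrays, Ptprc, the pan-leukocyte antigen CD45, at 2.44 on the ventral array and 2.24 on the dorsal array, and Itga2b, the early progenitor integrin CD41, at 2.81 on the ventral array and 2.78 on the dorsal array. Myb, Cd34 and Spi1 were also at background. The 3 with a signal were Mllt3, Etv6 and Meis1, genes that tissues other than blood also use. Meis1, a homeobox factor, was 5.98-fold higher on the ventral array, at 7.33 against 4.75 on the dorsal array, and was the only gene of the list at least 2-fold apart. The sum of the log2 levels of the list was 71.0 on the ventral array and 70.3 on the dorsal array. Such sums, here and in the lists below, include genes at background and do not measure amounts of cells.

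Globin transcripts, made by red cells, were abundant in both pieces. Hbb-bh1, an embryonic beta-like globin, was at 11.51 on the ventral array and 11.46 on the dorsal array. Probes for globins can cross-read between their close copies. The transcription factor Klf1, which drives globin genes, was 2.14-fold higher on the dorsal array, at 4.25 on the ventral array against 5.35 on the dorsal array, and was under 2-fold when columns or differences were centred, at -0.97 and -0.98. The sum of log2 levels over the 11 measured erythroid genes was 65.7 on the ventral array and 65.3 on the dorsal array, and the median difference of the 9 kept genes was 0.14. The part of red cells in the Gfi1b signal was not tested. All 6 measured platelet genes were at background on both arrays, Pf4 at 2.98 on the ventral array and 3.04 on the dorsal array. The share of all named genes under the mark on both arrays, 71.2%, stands beside the platelet count and the macrophage count below. Of 11 macrophage genes 7 lay under the mark throughout, and none was at least 2-fold apart. Their sum was 38.4 on the ventral array and 39.9 on the dorsal array.

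Endothelial genes went in both directions by sign, but those at least 2-fold apart were all higher on the ventral array. The sign counts below include genes under the mark on both arrays, where a difference is not detectable. Of 15 kept genes, out of 19 measured, 3 were at least 2-fold higher on the ventral array by measured values and 0 on the dorsal array, and by sign alone 10 were higher on the ventral and 5 on the dorsal array. Cdh5, the gene of VE-cadherin, was 5.34-fold higher on the ventral array, at 6.64 against 4.22 on the dorsal array, and Emcn at least 2.34-fold. Kdr had a dorsal value under the mark and is shown to be higher only by at least 1.88-fold. With the floor at the receptor genes' 99th percentile, 1 endothelial gene was counted at least 2-fold higher on the ventral array. Pecam1, above the mark on both arrays, was 1.96-fold higher on the ventral array, at 4.99 against 4.02 on the dorsal array. With columns or differences centred, Pecam1 passed 2-fold, at 1.10 and 1.09. Eng, the endothelial receptor endoglin, went the other way, at 3.53 on the ventral array against 4.09 on the dorsal array, a bound of at least 1.13-fold. Sox17, a factor of arterial and hemogenic endothelium, was at 4.47 on the ventral array and 4.68 on the dorsal array. Tek was at background on both arrays, as were 11 of the 19 genes in all, beside 71.2% of all named genes. The sum of log2 levels was 73.9 on the ventral array and 69.2 on the dorsal array. The median difference of the 15 kept genes was 0.08, and the part of endothelial cells in the Cbfb and Mecom differences was not tested.

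Wt1 and Emx2, in the list of the mesonephric duct and tubules, where Mecom is also known to be expressed, were higher on the ventral array by bounds of at least 6.46-fold and at least 1.92-fold. The other 4 kept genes of the 8 measured were within 2-fold and by sign higher on the dorsal array. With the floor at the receptor genes' 99th percentile, Wt1 was still counted as 2-fold apart and Emx2 was not. Osr1, the only gene of the list above the mark on both arrays, was 1.54-fold higher on the dorsal array. Its values were 5.01 on the ventral array and 5.63 on the dorsal array. Pax2, Pax8 and Lhx1, also of this list, were at background on both arrays. The median difference of the 6 kept genes was -0.28. Of the 8 genes, 5 were at background on both arrays, beside 71.2% of all named genes. The summed log2 level was 30.9 on the ventral array and 28.4 on the dorsal array. This sum does not measure how much duct or tubule tissue was present. The part of such tissue in the Mecom difference was not tested. Skeletal precursor genes, the setting of Runx2, had 1 of 8 kept genes at least 2-fold higher on the ventral array by measured values, Dlx5, and 1 on the dorsal array, Bglap, out of 10 measured. Dlx5 had a dorsal value under the mark, which bounds it at only at least 1.18-fold, and it was no longer counted with the floor at the receptor genes' 99th percentile. Bglap, at 5.02 on the ventral array and 6.33 on the dorsal array, was 2.47-fold higher on the dorsal array. Twist1, above the mark on both arrays, was 1.96-fold higher on the dorsal array. Twist1 passed 2-fold after quantile normalization, at -1.28, and after a loess on level, at -1.21. By sign, 2 of the 8 kept genes were higher on the ventral array and 6 on the dorsal array, with a median difference of -0.44. These signs include genes under the mark on both arrays, where a difference is not detectable. The osteoblast factor Sp7, which acts downstream of Runx2, was at 2.75 on the ventral array and 2.87 on the dorsal array. Sensory neuron genes, the setting of Runx3, had none at least 2-fold apart among 6 kept of 7 measured. Isl1 was the only one above background on both arrays, at 4.34 on the ventral array and 4.89 on the dorsal array.

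**Figure D4:**
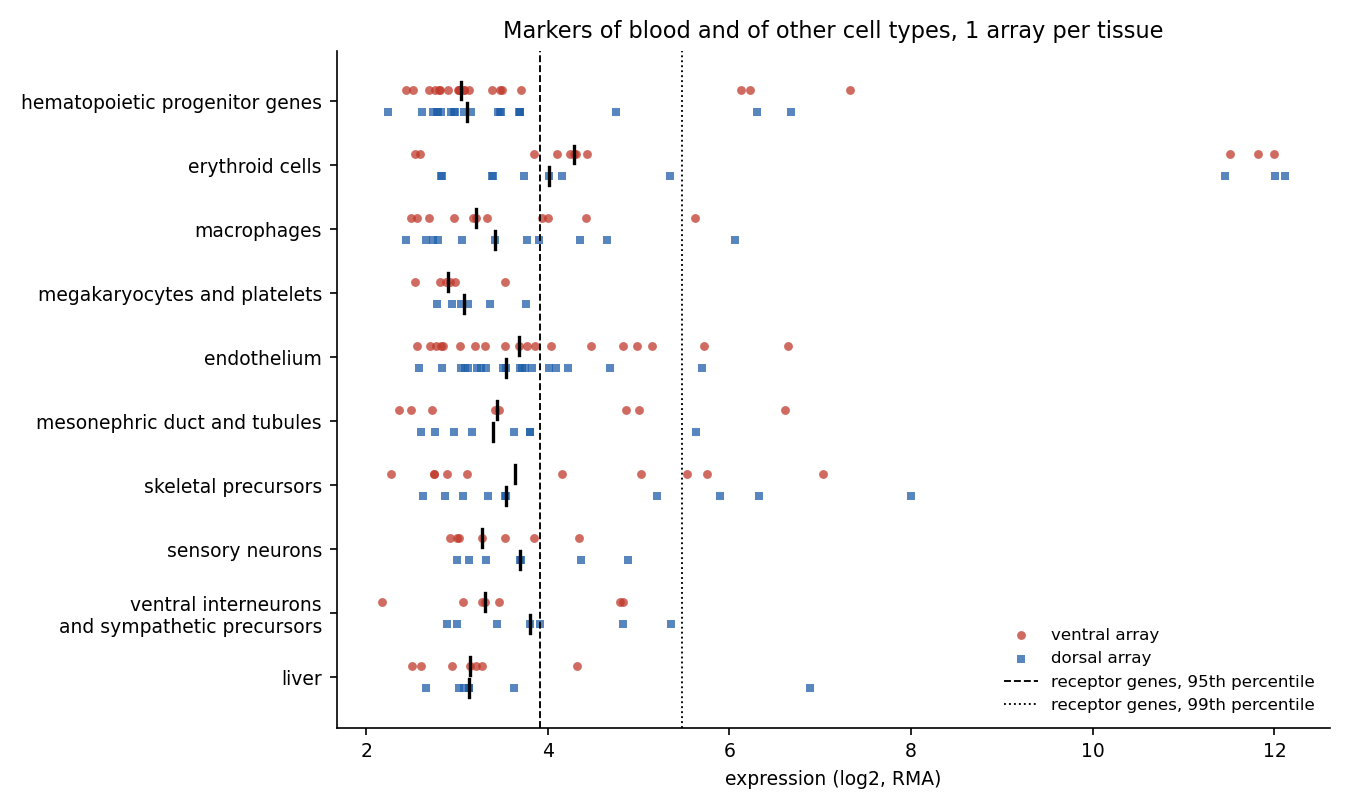
Levels on the log2 scale (horizontal axis) of the measured genes of 10 marker lists (rows), circles for the ventral and squares for the dorsal array, with black ticks at the median of each list and array, 1 array per tissue. Dashed and dotted lines are the receptor genes' 95th and 99th percentiles. Under the dashed line on both arrays lie 17 of the 20 blood progenitor genes and all 6 platelet genes, beside 71.2% of all named genes (not drawn).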

How the data were processed

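RNA from picogram amounts of microdissected tissue was amplified by a single-primer isothermal method and hybridised to Affymetrix Mouse Gene 2.0 ST arrays, per the labels' protocols and the series design. Chance loss or excess of transcripts in such amplification cannot be undone later. The authors deposited log2 values, 1 for each Entrez gene number on each array. They were made with Affymetrix Expression Console and RMA, per the submitters' processing notes, and the sources used here give neither versions nor the probe annotation nor which arrays were processed jointly. Detection calls and probe-level files were not used.

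Of 25429 features, 24675 had exactly 1 listed symbol and formed the background; Runx2 was added through its gene number in RefSeq (GRCm38.p6), which names 563 of the 754 unlisted features in all. Arrays were assigned by title. Differences are ventral minus dorsal, counted at 2-fold among genes above the floor, with lower bounds against the receptor genes' 95th percentile; the number of arrays limits the precision. With 1 array per tissue no test was made. The 10 genes, the 14 other lists and the background mark were chosen with earlier results of these data known. Named genes were the 10 members, every partner or corepressor at least 2-fold apart, up to 3 genes at least 2-fold apart of each other list, and the 2 nearest genes of each member above background; further list genes, such as Kit, Tcf12 or Kdm1a, were named after their values were seen. Counting and bounds were tested on simulated data. Alternatives covered scaling, floors, fold thresholds and background marks, and, chosen after seeing the data, naming every feature through RefSeq. The scripts ran under Python 3.11.15 with matplotlib 3.10.9, statsmodels 0.14.6, pandas 2.3.3 and numpy 2.4.6.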

Additional observations from a re-analysis of the deposited data

How the results depend on the processing

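Cbfb was at least 2-fold higher on the ventral array under all 4 scalings tried, at 2.23 to 2.45 on the log2 scale, and at each floor and fold threshold. The dorsal Cbfb value lay under the mark, so these sizes are not exact. Rescaling the same arrays cannot test for chance loss of a transcript. Mecom ranged from 0.80 to 0.96, Gfi1b from 0.40 to 0.75 and Runx1 from -0.36 to -0.32, and the sign of 5 regulators, Gfi1, Lmo2, Runx2, Runx3 and Tal1, all at background, changed with at least 1 scaling. At the 99th percentile of the receptor genes, 1 regulator had a signal on the ventral array and 0 on the dorsal array, and at the 90th percentile 4 and 5. At 1.5-fold, 3 regulators were higher on the ventral array. Over the 13982 kept genes, 1320 passed 2-fold with the ventral array higher and 682 with the dorsal array higher. The counts were 2286 and 2099 at 1.5-fold, 626 and 228 at 3-fold, and 792 and 335 with the floor at the receptor genes' 99th percentile, which tests fewer genes. Over the kept genes of the 14 other lists, 12 were at least 2-fold higher on the ventral array and 7 on the dorsal array. Beside them stand 9.44% and 4.88% of all kept genes. The list counts were 22 and 18 at 1.5-fold, 6 and 3 at 3-fold, and 7 on the ventral array with that floor. The share of calls that were higher on the ventral array was 65.9%, and 75.1% and 74.3% with columns or differences centred, 68.5% after a loess on level and 59.2% after quantile normalization. Naming every feature through RefSeq, an alternative chosen after seeing the data, changed no count of regulators. It gave 9 list genes at least 2-fold higher on the dorsal array. Of 280 counts of single lists, 31 moved by over 1.5 times, 19 of them with the fold threshold. No paired analysis was possible because the result comes from no test, with 1 array per tissue. Values near the background mark limit what any setting can show for the 7 regulators under it.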

Other observations

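Some lists chosen for other cells of the region bear on no regulator above. Of 7 measured liver genes, Ttr, which encodes a transport protein of plasma, was 5.93-fold higher on the dorsal array, at 4.32 on the ventral array against 6.89 on the dorsal array, while Alb, at 3.14 on the ventral array and 3.08 on the dorsal array, and Afp were at background on both arrays. Among 7 measured genes of ventral interneurons and sympathetic precursors none was at least 2-fold apart. Hand2, a factor of sympathetic precursors and mesenchyme, was at 4.82 on the ventral array and 4.83 on the dorsal array, and Sox14, an interneuron factor, at 4.79 on the ventral array and 5.36 on the dorsal array.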
